A study of Rattus norvegicus with 9 samples.

Results

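Receptors for the neurotrophins and for the glial cell line-derived neurotrophic factor (GDNF) family were followed in rat dorsal root ganglia of the lumbar spine, where the cell bodies of sensory neurons lie. The set was given as 7 gene symbols, and every probe set annotated to one of those symbols alone was taken. That gave 13 of the 15866 non-control probe sets on the array, with 3 for Ntrk2, 3 for Ret, 2 for Gfra1, 2 for Gfra2 and 1 each for Ntrk3, Ngfr and Pspn. The rule itself uses no measured value, although the genes were picked with earlier results of these data known. Of the 7 genes, 6 encode receptors or co-receptors, while Pspn encodes a ligand, persephin, so the set is not made of receptors alone.

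Neurotrophins act on sensory neurons through Trk receptor tyrosine kinases, each with its preferred ligand, and through p75, a lower-affinity receptor that binds all of them. Ligands of the GDNF family first bind a GPI-anchored GFR-alpha co-receptor, and the complex then activates the shared kinase Ret. In adult ganglia TrkB and TrkC mark subsets of larger mechanoreceptive and proprioceptive neurons, while Ret and the GFR-alpha co-receptors mark many small non-peptidergic neurons as well as some large ones.

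The 3 groups, all of Sprague-Dawley rats, were normal rats on vehicle, rats injected with streptozotocin (STZ) on vehicle, and STZ-injected rats on FK1706. Age, sex and the dose of the drug were not stated in the sources used here. STZ destroys the insulin-producing beta cells and so makes rats diabetic. FK1706 is a derivative of the immunosuppressant FK506 that is known for enhancing neurite outgrowth in cultured cells. The L4 to L6 ganglia were taken after 1, 2 or 3 weeks of dosing, and each of the 9 arrays held RNA pooled from 5 rats, so each group had 1 pool a week. No normal rats received FK1706. Every p-value below rests on the spread between pools that is left after the group and week terms of the fit. That spread is shared by all 3 groups and is moderated by limma with that of the other probe sets. The 3 pools of a group differ in week as well as in animals.

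Levels are given as log2 signal after an offset of 18.7 signal units had been added and the arrays had been put on one scale by quantile normalization. Before that step the trimmed mean signal of an array lay between 360 and 532, and it was lower in week 3 than in week 1 in each group. All 11 defining sensory neuron markers were above the filter on low signal, and their summed level lay between 63400 and 66400 in the 9 pools. The summed level of the 12 of 13 skeletal muscle markers on the array, a tissue outside the ganglion, ranged from 2550 to 7100, with the highest value in the week 2 normal pool. The summed level of 6 fibroblast and matrix markers was 35400, 26000 and 30100 in the normal pools of weeks 1, 2 and 3, 26100, 21000 and 23200 in the STZ vehicle pools, and 28200, 23400 and 23500 in the FK1706 pools. It was lower in both STZ groups than in the normal pool of the same week, and its part in the differences between groups was not tested. Differences between groups are relative to the array as a whole, since on the deposited scale the median of all tested probe sets was -0.10 for STZ vehicle against normal, -0.07 for FK1706 against STZ vehicle and -0.17 for FK1706 against normal. Precision is limited by the number of arrays. In pooled tissue, fewer cells of a type and less RNA per cell cannot be told apart.

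No probe set of the receptors or of persephin passed the test in any comparison of groups. In STZ vehicle against normal vehicle 0 of 12 tested probe sets passed at an adjusted p under 0.05 in limma, beside 0.0630% of all 9520 tested. In STZ FK1706 against STZ vehicle 0 of 12 passed, beside 0%, and in STZ FK1706 against normal vehicle 0 of 12, beside 0%. At an unadjusted p under 0.05 the counts were 0, 0 and 1 of 12, beside 8.70%, 3.37% and 8.16% of all probe sets tested. The remaining member probe set, 1370652_at for Ntrk2, was under the filter and was not tested.

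**Figure D1:**
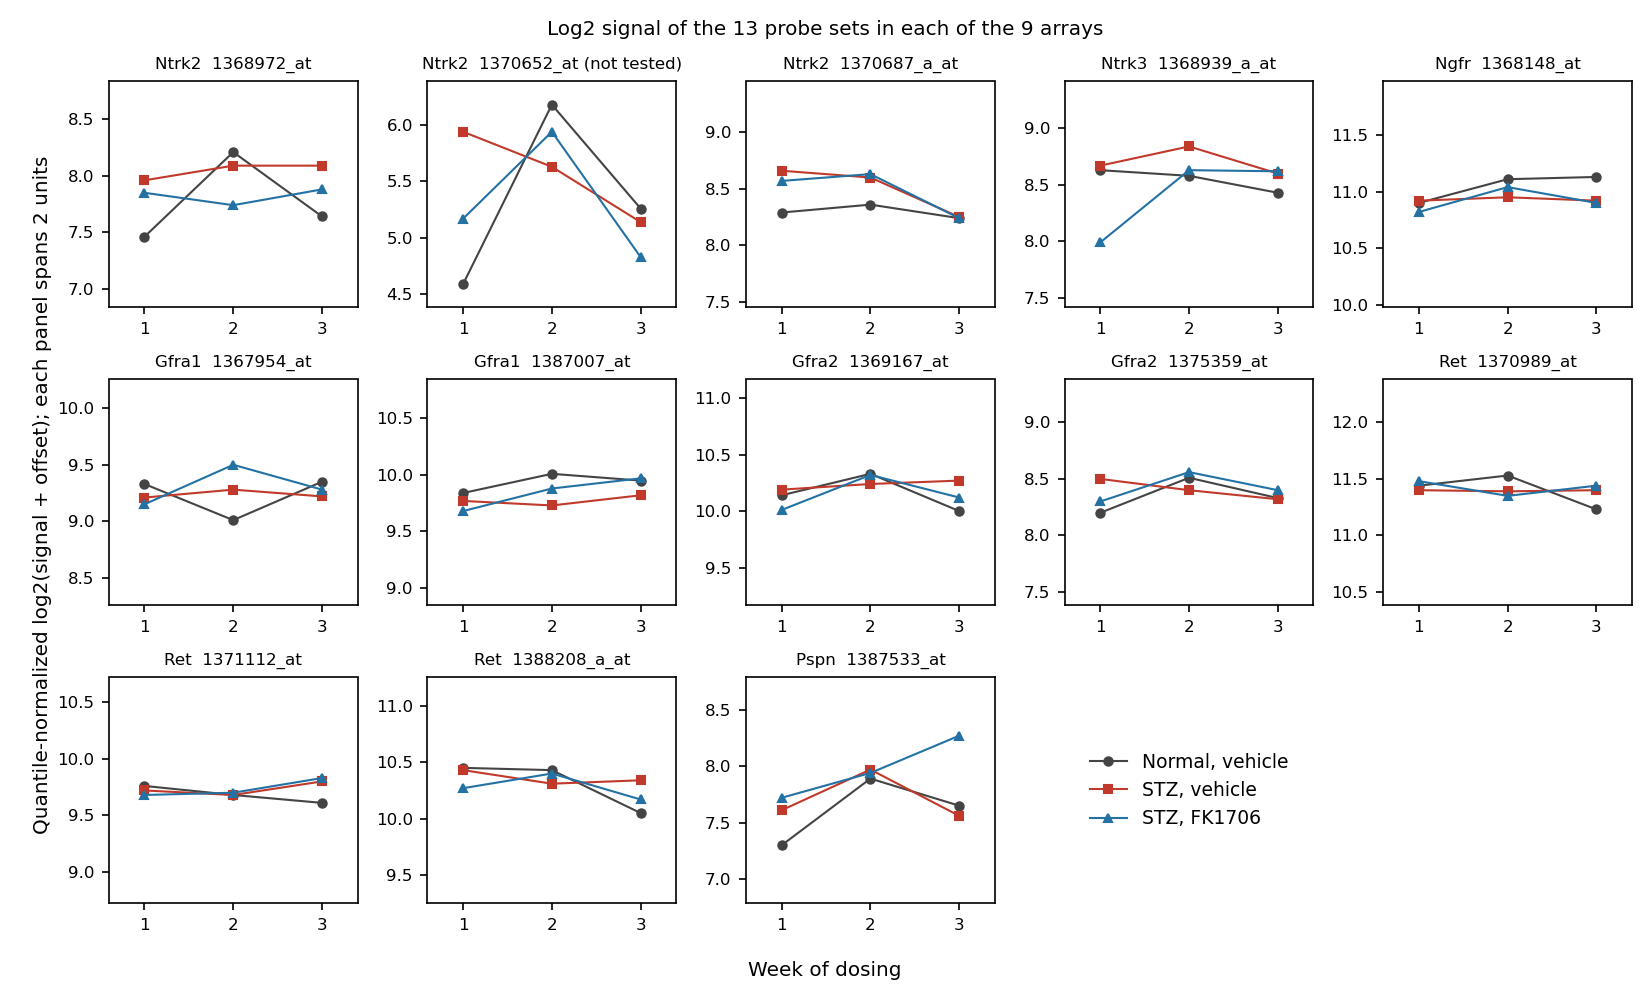
Quantile-normalized log2 signal (vertical axis, each panel spanning 2 log2 units) of the 13 probe sets against week of dosing (horizontal axis), with 1 point per pool and lines joining the pools of a group. The lines of the 3 groups cross in most panels, and the week 1 FK1706 pool for Ntrk3 (7.99) lies below, and the week 3 FK1706 pool for Pspn (8.27) above, the other 8 points of its panel.

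Pspn encodes persephin, the ligand that signals through GFR-alpha 4 and Ret. Its log2 signal (probe set 1387533_at) in weeks 1, 2 and 3 was 7.30, 7.89 and 7.65 for the normal pools, 7.61, 7.97 and 7.56 for the STZ vehicle pools, and 7.72, 7.94 and 8.27 for the FK1706 pools. The filter on low signal was a mean of 7.36 over the 9 pools, and the week 1 normal pool read below that. The 3 groups overlapped, and the week 3 FK1706 pool held the highest value of all 9 pools. On the scale of the deposited signal that pool read 247.7, where the other 2 pools of the same week read 166.5 and 152.4.

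The group means of Pspn were 7.61 ± 0.296 (SD, n = 3) for normal, 7.71 ± 0.220 for STZ vehicle and 7.98 ± 0.278 for FK1706. Its difference of FK1706 from normal was 0.36 (SE 0.163, limma adjusted p = 0.608), positive in each week at 0.42, 0.05 and 0.62. This was the only member probe set with an unadjusted p under 0.05 in limma in any of the 3 comparisons of groups. The difference was 0.19 without the week 3 FK1706 pool. Against STZ vehicle the difference was 0.27 (SE 0.163, limma adjusted p = 0.999), with 0.11, -0.02 and 0.71 in the 3 weeks, and it was 0.09 without the week 3 FK1706 pool. STZ vehicle and normal rats differed by 0.10 (SE 0.163, limma adjusted p = 0.888), with values of both signs over the weeks.

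Promoter sequences from RefSeq (build GRCr8) are shown for Pspn, which had the smallest unadjusted p of the set, and for Gfra1, whose probe set 1387007_at had normal and STZ vehicle groups that did not overlap. The table held 3 of the 7 genes, these and Ret. Each window runs from 250 bases before to 50 bases after the annotated start, in the direction of the gene, and capitals mark the GC box GGGCGG, a motif bound by Sp-family factors, or its reverse complement CCGCCC. Nothing was measured at these promoters, and the array reports transcript levels only.
Pspn promoter, chr9:1928703-1929002, minus strand: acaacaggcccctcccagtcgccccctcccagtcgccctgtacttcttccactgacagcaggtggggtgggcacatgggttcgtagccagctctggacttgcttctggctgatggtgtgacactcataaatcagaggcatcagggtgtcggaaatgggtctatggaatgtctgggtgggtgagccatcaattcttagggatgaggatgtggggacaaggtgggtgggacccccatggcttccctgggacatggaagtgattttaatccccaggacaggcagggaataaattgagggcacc
Gfra1 promoter, chr1:267555762-267556061, minus strand: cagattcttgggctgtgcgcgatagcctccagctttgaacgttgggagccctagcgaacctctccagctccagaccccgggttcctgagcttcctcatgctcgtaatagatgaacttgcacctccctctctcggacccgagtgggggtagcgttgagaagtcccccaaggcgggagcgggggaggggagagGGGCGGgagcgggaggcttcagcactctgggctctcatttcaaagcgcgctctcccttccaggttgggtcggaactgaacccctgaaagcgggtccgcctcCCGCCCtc
The window of Gfra1 held 2 GC boxes, counted over both strands, while those of Pspn and Ret held 0, and 33.1% of 33469 rat promoters of this length held at least 1. The share of G and C was 63.0% for Gfra1, 74.0% for Ret and 56.3% for Pspn, where the median of all promoters was 51.7%.

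Ntrk2 encodes TrkB, the receptor of brain-derived neurotrophic factor and neurotrophin 4, which also exists in truncated forms without the kinase. The sources used here do not say which form each of its probe sets reads. Probe set 1368972_at read 7.46, 8.21 and 7.64 for the normal pools in weeks 1, 2 and 3, 7.96, 8.09 and 8.09 for the STZ vehicle pools, and 7.85, 7.74 and 7.88 for the FK1706 pools. All 3 STZ vehicle pools lay above all 3 FK1706 pools, while the normal pools spanned both groups. The difference of FK1706 from STZ vehicle was -0.23 (SE 0.167, limma adjusted p = 0.999), with -0.12, -0.35 and -0.21 in the 3 weeks. That SE rests on the spread of all 3 groups. The SD was 0.389 in the normal pools, which are outside this comparison, 0.074 in STZ vehicle and 0.076 in FK1706 pools. This was the 1 of 12 member probe sets whose FK1706 pools lay below all STZ vehicle pools, where 3.52% of all tested probe sets did. In turn 0 of 12 lay above, where 3.30% did. Without the week 2 FK1706 pool the difference was -0.06.

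Against normal rats the same Ntrk2 probe set had a difference of 0.27 in STZ vehicle rats (SE 0.167, limma adjusted p = 0.653), with 0.50, -0.12 and 0.45 in weeks 1, 2 and 3. Its normal pools ranged from 7.46 to 8.21, more widely than either STZ group. The week 2 normal pool, the highest of the 9 for this probe set, was also the pool with the most skeletal muscle signal, and the part of muscle in this value was not tested. Without that pool the difference of STZ vehicle from normal was 0.50.

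The second tested probe set of Ntrk2, 1370687_a_at, read 8.29, 8.36 and 8.24 for the normal pools, 8.66, 8.60 and 8.25 for the STZ vehicle pools, and 8.57, 8.63 and 8.24 for the FK1706 pools. In weeks 1 and 2 both STZ groups were above the normal pool, and in week 3 all 3 pools read 8.24 or 8.25. The difference of STZ vehicle from normal was 0.21 (SE 0.113, limma adjusted p = 0.612), and that of FK1706 from normal was 0.18 (SE 0.113, limma adjusted p = 0.675). FK1706 and STZ vehicle differed by -0.02 (SE 0.113, limma adjusted p = 0.999). The 2 probe sets thus had the same sign for STZ vehicle against normal, but over the 9 arrays they correlated with r = 0.17 only. The untested probe set, 1370652_at, gave deposited signals from 6.7 to 57.4, of which several were below the offset, so no difference between groups could be read from it.

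Ntrk3 encodes TrkC, the receptor of neurotrophin 3 and a marker of proprioceptive neurons. Its log2 signal (probe set 1368939_a_at) was 8.63, 8.58 and 8.43 for the normal pools, 8.67, 8.84 and 8.60 for the STZ vehicle pools, and 7.99, 8.63 and 8.62 for the FK1706 pools in weeks 1, 2 and 3. The week 1 FK1706 pool stood below the other 8 pools, which lay between 8.43 and 8.84. In deposited signal it read 248.9, where the normal and STZ vehicle pools of that week read 463.6 and 458.4.

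The difference of FK1706 from STZ vehicle for Ntrk3 was -0.29 (SE 0.153, limma adjusted p = 0.999), the lowest of the 12 probe sets in that comparison. It was -0.68, -0.20 and 0.02 in weeks 1, 2 and 3, and -0.06 without the week 1 FK1706 pool. Against normal rats the difference of FK1706 was -0.13 (SE 0.153, limma adjusted p = 0.845), and it was 0.09 without that pool. In STZ vehicle rats the difference from normal was 0.16 (SE 0.153, limma adjusted p = 0.795), positive in each week at 0.04, 0.26 and 0.16. The summed level of the sensory neuron markers in the week 1 FK1706 pool was 63700, where the 9 pools ran from 63400 to 66400. The lowest sum, 63400, was that of the week 1 normal pool, where Ntrk3 read 8.63. For the 8 large myelinated neuron markers the week 1 sum was 25500, 24600 and 25700 in the normal, STZ vehicle and FK1706 pools. The part of neuron content in the Ntrk3 values was not tested.

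Ngfr encodes p75, which in ganglia is carried by neurons and by Schwann cells and satellite glia. It read 10.90, 11.11 and 11.13 for the normal pools, 10.92, 10.95 and 10.92 for the STZ vehicle pools, and 10.82, 11.04 and 10.90 for the FK1706 pools. In weeks 2 and 3 the normal pool was the highest of the 3, and in week 1 it lay between them. The difference from normal was -0.12 in STZ vehicle (SE 0.073, limma adjusted p = 0.65) and -0.13 in FK1706 rats (SE 0.073, limma adjusted p = 0.654), and FK1706 differed from STZ vehicle by -0.01 (SE 0.073, limma adjusted p = 0.999). The summed level of the 8 of 10 Schwann cell markers on the array, Ngfr among them, was 41700 to 42400 in normal pools, 37300 to 41400 in STZ vehicle pools and 38900 to 39900 in FK1706 pools. For the 6 satellite glia markers on the array the sum was 16700 to 17800, 17300 to 18100 and 16800 to 17200 in the same order. The 11 sensory neuron markers gave 63400 to 66000, 64400 to 65200 and 63700 to 66400. The part of these cell types in the Ngfr values was not tested.

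Gfra1 encodes the co-receptor of GDNF and was read by 2 probe sets. With 1387007_at the log2 signals were 9.84, 10.01 and 9.95 for the normal pools, 9.77, 9.73 and 9.82 for the STZ vehicle pools, and 9.68, 9.88 and 9.97 for the FK1706 pools. All 3 normal pools lay above all 3 STZ vehicle pools, by a margin of hundredths of a log2 unit, and the FK1706 pools spanned both groups. The difference of STZ vehicle from normal was -0.16 (SE 0.086, limma adjusted p = 0.61), with -0.07, -0.27 and -0.13 in the 3 weeks. It was the 1 of 12 member probe sets with all STZ vehicle pools below all normal pools, where 6.62% of all tested probe sets had them so, and 0 of 12 had them above, where 6.13% did.

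The other Gfra1 probe set, 1367954_at, did not follow it. It read 9.33, 9.01 and 9.35 for the normal pools, 9.21, 9.28 and 9.22 for the STZ vehicle pools, and 9.15, 9.50 and 9.28 for the FK1706 pools, and its difference of STZ vehicle from normal was 0.01 (SE 0.123, limma adjusted p = 0.992). Here the week 2 normal pool was the lowest of the 9, while with 1387007_at the same pool was the highest of the 9 at 10.01. That pool also had the highest muscle signal, and the part of muscle in these values was not tested. The 2 probe sets correlated with r = 0.02 over the 9 arrays. FK1706 differed from STZ vehicle by 0.07 with either probe set (SE 0.123 and 0.086, limma adjusted p = 0.999 for both), and from normal by 0.08 and -0.09.

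Gfra2, the co-receptor of neurturin, is a marker of non-peptidergic nociceptors. Probe set 1369167_at gave deposited signals of 1372.3, 1432.5 and 890.6 in the normal pools of weeks 1, 2 and 3, 1399, 1168.2 and 1006.9 in the STZ vehicle pools, and 1098, 1198.6 and 900.3 in the FK1706 pools. On one log2 scale the group means were 10.16 ± 0.166 (SD, n = 3), 10.23 ± 0.044 and 10.15 ± 0.160, and the 3 groups overlapped. The difference of STZ vehicle from normal was 0.08 (SE 0.090, limma adjusted p = 0.834), and that of FK1706 from STZ vehicle was -0.08 (SE 0.090, limma adjusted p = 0.999). Of 5 non-peptidergic nociceptor markers 4 were on the array, Gfra2 among them. Their summed level was 5810 to 6090 in normal, 6100 to 6780 in STZ vehicle and 6230 to 6770 in FK1706 pools. By this sum the normal pools lay below both STZ groups. By the mean log2 of these markers the groups overlapped, with 10.21 in the week 1 normal pool and 10.18 in both STZ-injected pools of week 3. The part of these neurons in the Gfra2 values was not tested. Probe set 1375359_at read from 8.20 to 8.56 over the 9 pools and gave 0.06 (SE 0.117) and 0.01 (SE 0.117) for the same comparisons. The 2 probe sets of Gfra2 correlated with r = 0.61, the highest value among the pairs of tested probe sets of one gene.

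Ret encodes the shared kinase of the GDNF family and was read by 3 probe sets. Probe set 1370989_at read 11.44, 11.53 and 11.23 for the normal pools, 11.40, 11.39 and 11.40 for the STZ vehicle pools, and 11.48, 11.35 and 11.44 for the FK1706 pools. The STZ vehicle pools of the 3 weeks read 11.39 or 11.40, inside the range of the normal pools. The difference of STZ vehicle from normal was -0.00 (SE 0.080, limma adjusted p = 0.994), with a 95% interval of 0.88-fold to 1.13-fold. FK1706 differed from STZ vehicle by 0.03 (SE 0.080), with an interval of 0.90-fold to 1.15-fold.

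Probe set 1371112_at of Ret gave 0.05 (SE 0.088) for STZ vehicle against normal and 0.00 (SE 0.088) for FK1706 against STZ vehicle. Probe set 1388208_a_at gave 0.05 (SE 0.093) and -0.08 (SE 0.093). In week 3 all 3 Ret probe sets were higher in the STZ vehicle pool than in the normal pool, by 0.18, 0.20 and 0.29. In weeks 1 and 2 these differences lay between -0.14 and -0.00. The 3 values read 1 gene in the same pools, and each was below the 95th percentile of that week (0.44). For each probe set the week 3 normal pool was the lowest normal pool. The FK1706 pool of week 3 was above it too, by 0.21, 0.22 and 0.12. The probe sets correlated with r between 0.25 and 0.56.

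**Figure D2:**
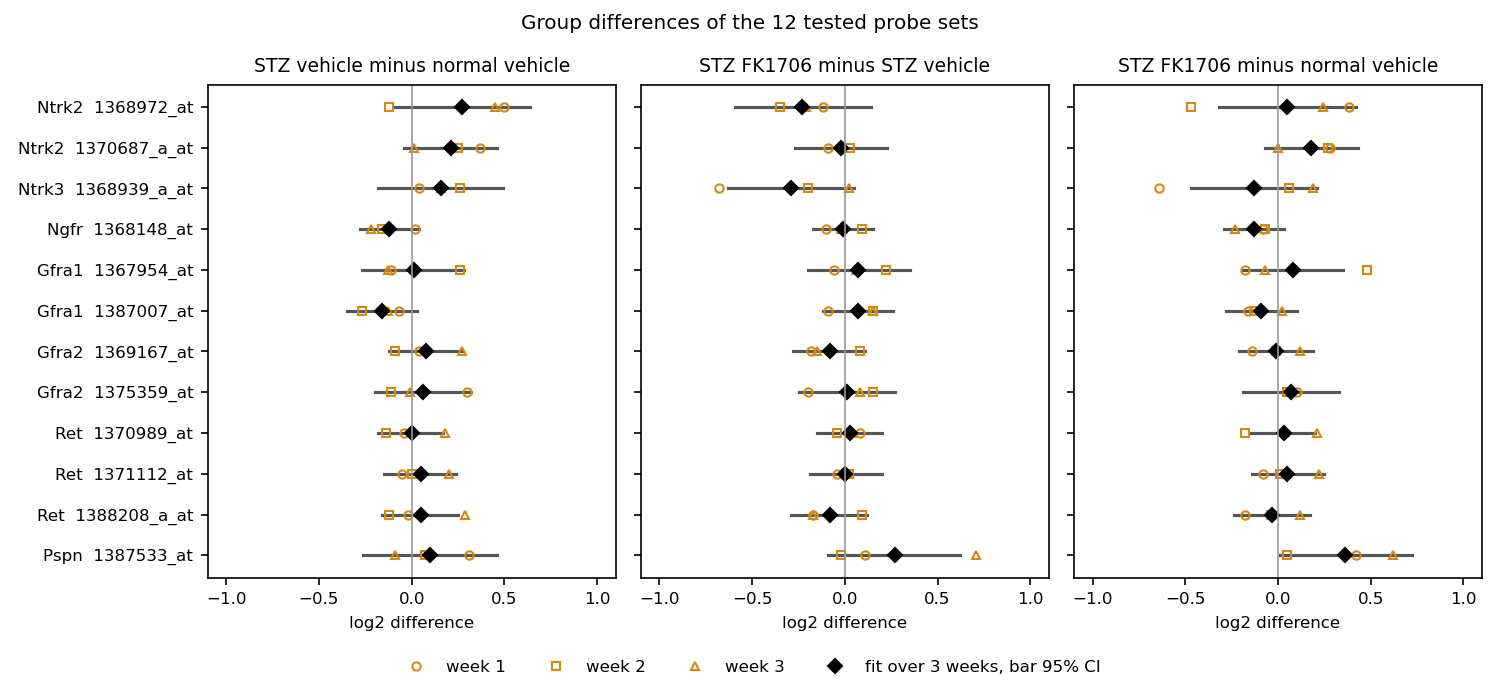
Log2 differences between groups (horizontal axis) for the 12 tested probe sets (rows), as the fit over 3 weeks (black diamonds, bars for the 95% interval) and as the difference within each week (open symbols). The interval for Pspn in FK1706 against normal starts at 0.01, and every other interval includes 0. Ntrk3 in week 1 (-0.68) and Pspn in week 3 (0.71) are the open symbols farthest from 0 in FK1706 against STZ vehicle.

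Whether receptor transcripts differ in ganglia of diabetic rats is addressed by STZ vehicle against normal vehicle. The 12 differences ran from -0.16 (Gfra1) to 0.27 (Ntrk2), with 9 above and 3 below 0 (3 and 9 on the deposited scale) and a median of 0.06, where the median of all 9520 probe sets was 0.005. The median size of a difference, regardless of sign, was 0.09 for the set and 0.10 for all probe sets tested. Of the 12 unadjusted 95% intervals, 11 lay within 1.5-fold in either direction and all 12 within 2-fold. The exception at 1.5-fold was Ntrk2 probe set 1368972_at, whose interval reached 1.56-fold. The same sign in each week was seen for 2 probe sets above 0 (Ntrk2 1370687_a_at and Ntrk3), beside 15.4% of all probe sets tested, and for 1 below 0 (Gfra1 1387007_at), beside 15.3%.

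Whether FK1706 goes with other receptor levels in diabetic rats is addressed by STZ FK1706 against STZ vehicle. The 12 differences ran from -0.29 (Ntrk3) to 0.27 (Pspn), with 6 on either side of 0 (2 above and 10 below on the deposited scale), and their limma adjusted p lay between 0.999 and 1. Their median size was 0.07, equal to that of all probe sets. Within 1.5-fold lay 9 of 12 intervals and within 2-fold all 12. The 3 exceptions were Ntrk2 1368972_at (down to 0.66-fold), Ntrk3 (down to 0.65-fold) and Pspn (up to 1.54-fold). Of all 9520 probe sets limma called 0, and 321 had an unadjusted p under 0.05.

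STZ FK1706 against normal vehicle holds STZ and drug together and shares its arrays with the other comparisons. Its 12 differences ran from -0.13 (Ntrk3 and Ngfr) to 0.36 (Pspn), with 7 above and 5 below 0 (2 and 10 on the deposited scale). Of the intervals 11 lay within 1.5-fold, and that of Pspn reached 1.65-fold. The same sign in each week was seen for Pspn and Gfra2 1375359_at above 0, 2 of 12 beside 14.0% of all probe sets, and for Ngfr below 0, 1 of 12 beside 13.8%. Groups did not overlap for 0 of 12, where 5.89% of all probe sets had FK1706 pools above and 5.97% below the normal pools.

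**Figure D3:**
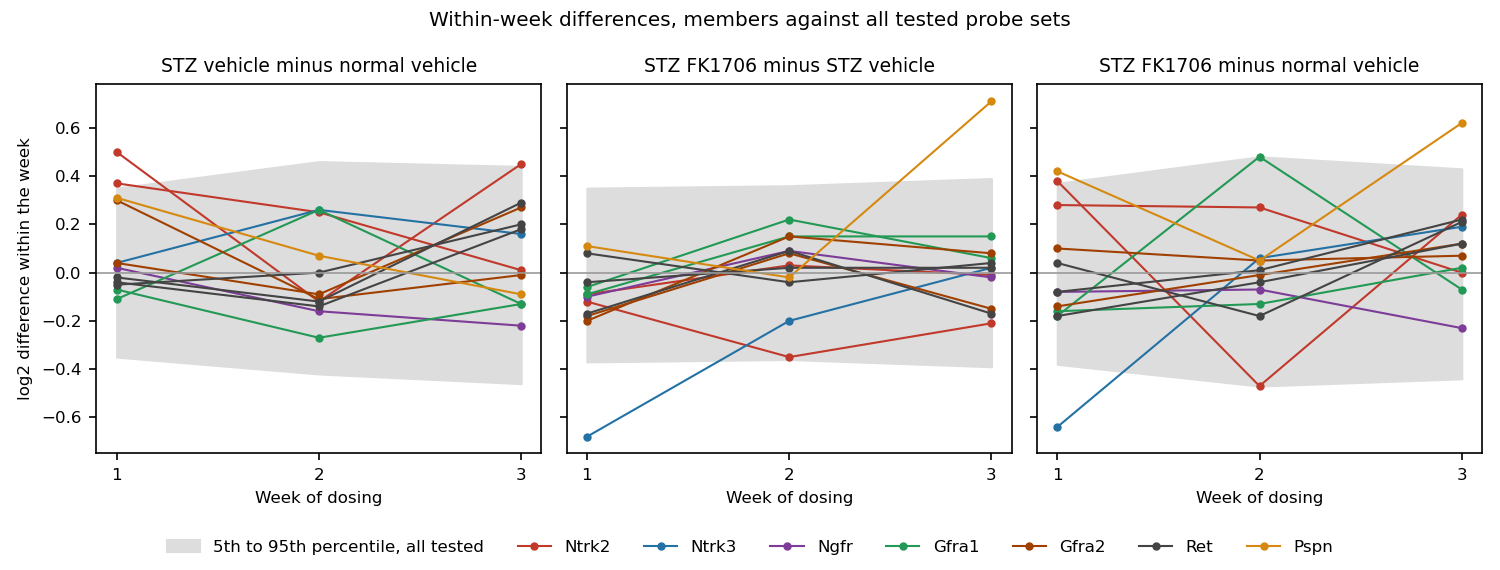
Difference between groups within each week (vertical axis, log2) against week of dosing (horizontal axis), with 1 line per tested member probe set coloured by gene and a grey band from the 5th to the 95th percentile of all 9520 tested probe sets. In FK1706 against STZ vehicle only Ntrk3 in week 1 and Pspn in week 3 leave the band.

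Single weeks were set against the spread of all tested probe sets, as a description, since a week holds 1 pool per group. In STZ vehicle against normal both tested Ntrk2 probe sets lay above the 95th percentile in week 1 (0.35), and 1368972_at again in week 3 (0.44). In FK1706 against STZ vehicle 1 of 12 lay below the 5th percentile in week 1 (Ntrk3, percentile at -0.37) and 1 above the 95th in week 3 (Pspn, percentile at 0.39). In week 2 of these 2 comparisons 0 of 12 lay outside. In FK1706 against normal Ntrk3 lay below the band in week 1 (-0.64), while Ntrk2 1368972_at (0.38) and Pspn (0.42) lay above it. In week 2 of that comparison Ntrk2 1368972_at lay below (-0.47) and Gfra1 1367954_at above (0.48), and in week 3 Pspn lay above (0.62).

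Weeks were compared over all groups with a moderated F test. Of the 12 probe sets 0 passed in limma at an adjusted p under 0.05, beside 0.0525% of all tested, and 0 had an unadjusted p under 0.05, beside 10.7%. The smallest adjusted p was that of Ntrk2 1370687_a_at at 0.468, whose means over the 3 pools of weeks 1, 2 and 3 were 8.51, 8.53 and 8.25. Pspn had means of 7.55, 7.93 and 7.83 (limma adjusted p = 0.53). On the deposited scale, where the signal of whole arrays fell with the weeks, 7 of 12 passed beside 62.4% of all probe sets, and all 12 had lower values in week 3 than in week 1.

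A linear change of the group differences over the weeks was also tested, and 0 of 12 passed in limma for either difference, beside 0% of all tested. At an unadjusted p under 0.05 the set had 0 of 12 in each, beside 3.93% for STZ vehicle minus normal and 3.39% for FK1706 minus STZ vehicle. The highest slope was 0.35 per week for Ntrk3 in FK1706 minus STZ vehicle (SE 0.166, limma adjusted p = 0.999), and its 3 values are those given above, with the week 1 pool low.

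The other genes of the pathway were taken from lists. Of 8 ligands of these receptors 6 had a probe set, and Pspn was the only one above the filter. Bdnf, for brain-derived neurotrophic factor, gave deposited signals of 101.3 to 191, and Gdnf 6.7 to 18.7. Neurotrophin genes Ntf3 (11.9 to 57.8) and Ntf4 (2.4 to 3.7) and the neurturin gene Nrtn (6.4 to 33.3) were also below the filter, as was Gfra4, the receptor partner of persephin (7.7 to 69.7). No difference between groups was tested for these genes.

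Of 12 other receptors and co-receptors 5 were tested, and 0 passed in limma in any comparison of groups. At an unadjusted p under 0.05 the count was 0 of 5 in each, beside 8.70%, 3.37% and 8.16% of all probe sets tested. Sort1, for sortilin, which pairs with p75, had 0.18 (SE 0.096) in STZ vehicle against normal. The p75 homologue gene Nradd had 0.23 (SE 0.126), and Kidins220, for a scaffold of Trk receptors, had 0.09 (SE 0.070). In FK1706 against STZ vehicle Sort1 had -0.08, Kidins220 -0.05 and Nradd 0.04. In FK1706 against normal Nradd had 0.27 (SE 0.126, limma adjusted p = 0.614), positive in each week, while Sort1 had 0.10 and Kidins220 0.04.

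Of 37 adaptors and kinases downstream of Trk and Ret 17 were tested, and 0 passed in limma in any comparison of groups. At an unadjusted p under 0.05 the count was 0 of 17 in each, beside 8.70%, 3.37% and 8.16% of all probe sets tested. Their medians were -0.04, 0.01 and -0.03 for STZ vehicle against normal, FK1706 against STZ vehicle and FK1706 against normal, where those of all probe sets were 0.005, -0.000 and 0.004. In STZ vehicle against normal the survival kinase gene Akt1 had -0.19 (SE 0.092), the phosphatase gene Ptpn11 -0.15 (SE 0.090) and the regulatory PI3-kinase subunit gene Pik3r1 0.46 (SE 0.329). In FK1706 against STZ vehicle the adaptor genes Frs3 and Shc2 had -0.21 (SE 0.140) and -0.22 (SE 0.167), and the small GTPase gene Nras had 0.24 (SE 0.165). In FK1706 against normal the adaptor gene Gab1 had -0.17 (SE 0.10), Akt2 0.21 (SE 0.127) and Shc2 -0.28 (SE 0.167).

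Of 19 p75 partners and negative regulators 13 were tested, and 0 passed in limma in any comparison of groups. In limma 0, 0 and 1 of 13 had an unadjusted p under 0.05, beside 8.70%, 3.37% and 8.16% of all probe sets tested. These counts are for STZ vehicle against normal, FK1706 against STZ vehicle and FK1706 against normal, in that order. The ubiquitin ligase gene Nedd4l had 0.24 (SE 0.117) in STZ vehicle against normal and -0.23 (SE 0.117) in FK1706 against STZ vehicle, and these comparisons share the STZ vehicle arrays. Cblb, for another ubiquitin ligase, had -0.20 (SE 0.109) and 0.16 (SE 0.109) in them, while the receptor phosphatase gene Ptprf had 0.13 (SE 0.088) in the first and Maged1 -0.12 (SE 0.075) in the second. Maged1, whose product binds p75, had in turn -0.22 (SE 0.075, limma adjusted p = 0.49) in FK1706 against normal, with -0.16, -0.32 and -0.19 in the 3 weeks, and was the 1 gene of the list at an unadjusted p under 0.05 there. The MAP kinase phosphatase gene Dusp6 had -0.28 (SE 0.135, limma adjusted p = 0.628) in the same comparison, and the ubiquitin ligase gene Nedd4 had 0.13 (SE 0.066).

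The genes most like each member over the 9 arrays were ranked by Pearson's r among 6989 other genes with 1 probe set per gene, as a description with no test. For Ntrk2 the first was Pafah1b3 (r = 0.956), for Ntrk3 Itgb3bp (0.940), for Ngfr Ptpn21 (0.938) and for Gfra1 Sfxn5 (0.945). For Gfra2 it was Lypla2 (0.942), for Ret Ubash3b (0.929) and for Pspn Ptprn2 (0.928). The next in rank were Onecut2 and Gfer for Ntrk2, Kiaa1671 and Nup153 for Ntrk3, Lyz2 and Ak3 for Ngfr, Eif4a3 and Gsto1 for Gfra1, Ddx51 and Wdr7 for Gfra2, Rab38 and Ppp2r2a for Ret, and Parl and Pbdc1 for Pspn. No member of the set was among the 3 genes most like another member. With only 3 places among 6989 genes, this does not show whether the members varied together. A best r of this size can come from a search of 6989 genes over 9 arrays alone. The named genes are therefore not shown to vary with the members. For Ntrk2 and Gfra1 the probe sets used were 1370687_a_at and 1387007_at. These correlated with the other tested probe set of their gene with r = 0.17 and 0.02.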

How the data were processed

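RNA from L4 to L6 ganglia was pooled from 5 rats per array, per the labels. The deposited values are a linear intensity per probe set, made by the authors with MAS5 per the submitters' processing notes (version not given there). Of 15923 probe sets, 57 were controls. The platform's annotation gave 1 symbol for 12783 of the others, several for 312 and no symbol for 2771. The GRCr8 gene table held 12748 of the single symbols and changed 0.

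An offset of 18.7 (the 10th percentile) was added, log2 values were quantile normalized, and probe sets whose mean reached the 40th percentile, 9520 in all, were tested with limma 3.58.1 in R 4.3.3 (lmFit, eBayes with a trend). Group and week entered as factors, with 4 residual degrees of freedom, and the fit of linear change over weeks had 3. P-values are two-sided and adjusted by Benjamini-Hochberg over all 9520. Week is a block because each group was sampled once a week, and after removal of group means the correlation between arrays from one week was -0.00 to 0.32, so the numbers are tied by the labels' week and only weakly by the values. Intervals at 95% come from the same fit and are not adjusted.

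The fit was tested on simulated data with known changes. The members and lists were chosen with earlier results of these data known. All member probe sets are named. From each list the 3 tested genes with the largest moderated t per comparison are named (fewer where fewer were tested), and 3 genes most like each member, with 1 probe set per gene (the one of highest mean). The choice among the promoters shown was made after values had been seen. Alternatives changed the scaling, offset, filter, prior, block, feature level and arrays used.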

Additional observations from a re-analysis of the deposited data

How the results depend on the processing

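Under 20 alternative settings, 12 of which left out arrays, 699 values of the member differences were computed and 0 passed an adjusted p of 0.05. Ntrk2 1368972_at and Pspn have no value with the filter at the 60th percentile, and Ntrk2 1368972_at, Gfra1 1367954_at, Gfra2 1375359_at and Ret 1371112_at and 1388208_a_at have none with 1 probe set per gene. Of the 36 member differences 14 kept their sign under every setting that gave them a value, and for the reversals below the cause was not tested unless stated. On the deposited scale, where whole arrays differ in signal, STZ vehicle against normal turned to -0.10 for Gfra1 1367954_at, -0.03 and -0.04 for Gfra2 1369167_at and 1375359_at, -0.07 and -0.06 for Ret 1371112_at and 1388208_a_at, and -0.00 for Pspn. FK1706 against STZ vehicle turned to -0.01 for Gfra1 1387007_at, -0.05 for Gfra2 1375359_at, and -0.05 and -0.07 for Ret 1370989_at and 1371112_at. FK1706 against normal turned to -0.11 for Ntrk2 1368972_at, -0.09 for Gfra1 1367954_at, -0.09 for Gfra2 1375359_at, and -0.14 for both Ret 1370989_at and 1371112_at. Scaling to one trimmed mean gave 0.02 for Ret 1370989_at in STZ vehicle against normal and -0.00 for Ret 1371112_at in FK1706 against STZ vehicle.

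Counts over all probe sets moved more. For STZ vehicle against normal (6 called in limma) they were 12 on the deposited scale, 0 without a filter (1175 at an unadjusted p under 0.05), 0 with no trend in the prior (781 unadjusted) and 1 without the week (replicate) block. For FK1706 against normal (0 called) they were 89 on the deposited scale, 1 with one trimmed mean, 2 with a filter at the 60th percentile and 1 with 1 probe set per gene. For weeks (5 called) they were 5936 on the deposited scale, 1 with one trimmed mean, 0 without a filter (1471 unadjusted) and 0 with no trend (1054 unadjusted). Leaving out the week block changed the call of no member.

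Leaving out 1 array or 1 week moved the counts from 0 to 11 for STZ vehicle against normal (11 without the week 1 normal pool, and 0 without the week 2 or week 3 STZ vehicle pool or the week 3 normal pool), from 0 to 2 for FK1706 against normal and from 0 to 18 for weeks (18 without week 2). For FK1706 against STZ vehicle it was 0 each time. Member differences whose sign turned ranged as follows. In STZ vehicle against normal they ran from -0.16 to 0.10 for Gfra1 1367954_at, -0.02 to 0.16 and -0.06 to 0.15 for Gfra2 1369167_at and 1375359_at, -0.09 to 0.08, -0.03 to 0.11 and -0.07 to 0.13 for Ret 1370989_at, 1371112_at and 1388208_a_at, and -0.01 to 0.26 for Pspn. In FK1706 against STZ vehicle they ran from -0.08 to 0.03 for Ntrk2 1370687_a_at, -0.06 to 0.05 for Ngfr, -0.06 to 0.17 for Gfra1 1367954_at, -0.07 to 0.12 for Gfra2 1375359_at, and -0.02 to 0.09 and -0.05 to 0.04 for Ret 1370989_at and 1371112_at. In FK1706 against normal they ran from -0.12 to 0.31 for Ntrk2 1368972_at, -0.30 to 0.12 for Ntrk3, -0.12 to 0.20 for Gfra1 1367954_at, -0.09 to 0.06 for Gfra2 1369167_at, and -0.07 to 0.13, -0.03 to 0.11 and -0.13 to 0.04 for Ret 1370989_at, 1371112_at and 1388208_a_at. With 1 pool per group and week, animals and weeks cannot be told apart.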
